A study of Tamarix ramosissima and Tamarix chinensis with 11 samples.

Results

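Among 117867 assembled genes, 18 were higher in every *T. ramosissima* library than in any *T. chinensis* library by a set margin, in well-watered leaves and in leaves at the wilting point alike. The rule asked that the lowest CPM (fragments per 1000000 fragments counted in the library) over the 6 *T. ramosissima* libraries be at least 1 and at least 2 times the highest CPM over the 5 *T. chinensis* libraries. It was met by 0.0858% of the 20983 genes that reached 1 CPM in every *T. ramosissima* library. The mirrored rule, with the species exchanged, was met by 31 genes. The genes were chosen by their CPM in all 11 libraries, so the difference between the species is described below and not tested.

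*T. chinensis* plants came from seed of an established stand in New Mexico and *T. ramosissima* plants from seed of a stand in Montana. They were 14 weeks old when they were moved to growth chambers at 25 °C. There were 2 libraries of the *T. chinensis* well-watered control (C) and 3 each of *T. chinensis* under water deficit (WD), *T. ramosissima* C and *T. ramosissima* WD, each from 1 plant. All leaf tissue of a plant was collected, and RNA was extracted from a sample of leaf tissue. Plants left without water wilted after 10 days in *T. chinensis* and after 17 days in *T. ramosissima*, so species, seed source and day of harvest cannot be told apart. The authors typed the seed lots to species by amplified fragment length polymorphism, on seedlings that the labels do not tie to these libraries. Library totals lay between 10245008 and 15655257 fragments, so that 1 fragment was worth between 0.0639 and 0.0976 CPM, and TMM factors lay between 0.803 and 1.13. The files hold assembly identifiers without gene names, so the leaf identity and the pathways of the 18 genes were not examined here.

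*Tamarix* (saltcedar) are shrubs and small trees of dry and saline ground that excrete salt through glands on their scale-like leaves. *T. chinensis* and *T. ramosissima* are close relatives that hybridize widely in North America. Both species were counted against 1 shared assembly, in which an identifier names a read cluster (DN), a connected component within it (c) and a gene within the component (g). A Trinity gene is therefore a group of contigs, and versions of a gene that differ in sequence can receive separate g numbers.

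**Figure D1:**
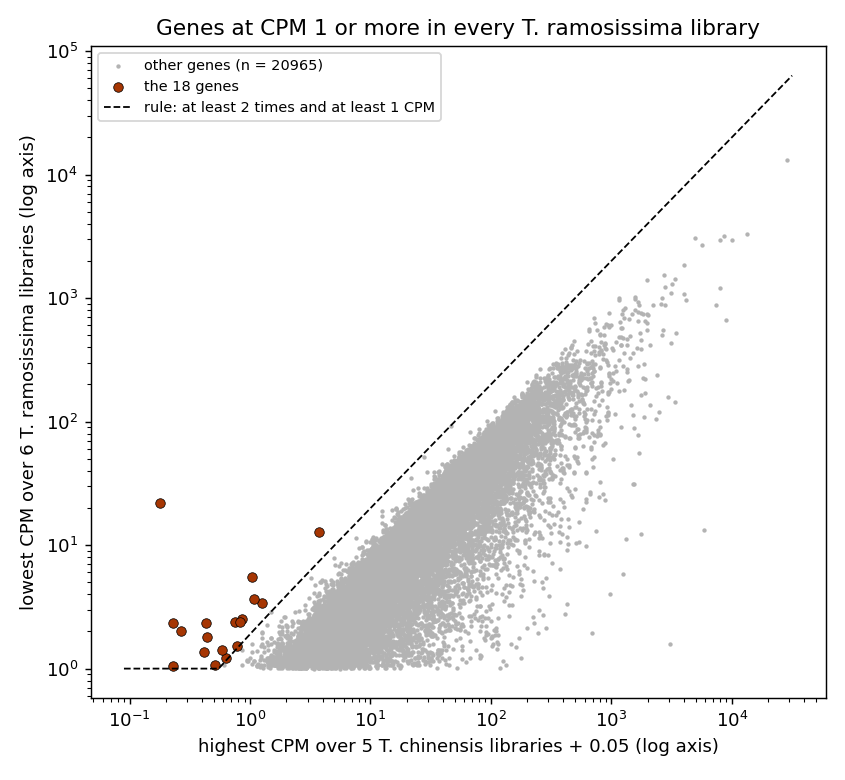
Each point is a gene with at least 1 CPM in every *T. ramosissima* library, placed by its highest CPM in *T. chinensis* (horizontal, log axis, 0.05 added) and its lowest CPM in *T. ramosissima* (vertical, log axis). The 18 genes lie above the dashed rule, mostly at the low end of both axes, and TRINITY_DN22326_c1_g1 lies far to the upper left, at a lowest level of 22.0 CPM against a highest of 0.128 CPM.

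The gene farthest from the threshold was TRINITY_DN22326_c1_g1. It had 3827 fragments over the *T. ramosissima* libraries and 3 over the *T. chinensis* libraries, a ratio of pooled CPM of 1045 (95% interval 357 to 5068, counting error only). The gene was chosen by these values and the interval leaves out the spread between plants, so it is no test. In *T. ramosissima* it was at 41.1, 37.3 and 92.6 CPM in C and at 22.0, 89.5 and 26.0 CPM in WD. The 3 fragments in *T. chinensis* were in the C libraries, at 0.0903 and 0.128 CPM, and all WD libraries were at 0. The treatments overlapped in *T. ramosissima*, and the gene was on in every plant of that species and close to the counting limit in every plant of the other. It was the only gene of its component. Its effective length (the length that RSEM used), relative to the median of well-counted genes, was 1.68, the longest of the 18.

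TRINITY_DN31553_c0_g1 had the next largest gap between the species. It was at 2.36, 7.46 and 16.2 CPM in *T. ramosissima* C and at 12.9, 11.2 and 23.7 CPM in WD, against 0 in both *T. chinensis* C libraries and 0.0976, 0 and 0.181 CPM in WD. Control plant 1 was the low library here, and the pooled ratio was 247 (84.2 to 1199), again from 3 fragments in *T. chinensis*. TRINITY_DN34041_c1_g2 came next, at 10.3, 10.5 and 33.9 CPM in C and 2.01, 6.79 and 7.65 CPM in WD of *T. ramosissima*. Its *T. chinensis* values were 0.220 and 0.128 CPM in C and 0, 0 and 0.0904 CPM in WD. In *T. chinensis*, 0 libraries had a rounded count above 2 for any of these 3 genes.

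TRINITY_DN40196_c3_g2 showed the widest span among *T. ramosissima* plants of the 18, 73.1 times between the lowest and the highest. It was at 24.6, 14.9 and 76.2 CPM in C and at 1.04, 18.1 and 12.9 CPM in WD. The library of WD plant 1 alone was low, and with it this gene stood just above the minimum of 1 CPM, while in *T. chinensis* it had 2 fragments and 1 fragment in C and 0 in every WD library.

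On the TPM scale, which divides by length, TRINITY_DN36006_c1_g3 had the highest value of the 18. This order depends on the effective lengths, since genes with a short effective length gain on this scale. The relative length of TRINITY_DN36006_c1_g3 was 0.0534. TRINITY_DN22326_c1_g1, the highest by mean CPM in *T. ramosissima* (51.4), was at 21.5 TPM with a relative length of 1.68. TRINITY_DN36006_c1_g3 was at 265 ± 107 TPM (SD, n = 6) in *T. ramosissima* and 37.3 ± 12.9 TPM (SD, n = 5) in *T. chinensis*. It was the only one of the 18 with more than 1.5 CPM in several *T. chinensis* libraries, at 3.70 and 3.64 CPM in C and 2.34, 2.52 and 1.45 CPM in WD. In *T. ramosissima* it was at 12.8, 13.2 and 33.4 CPM in C and 26.1, 17.6 and 18.2 CPM in WD. TRINITY_DN27944_c1_g2 followed with 95.3 ± 67.3 TPM in *T. ramosissima* (SD, n = 6) and 5.89 ± 2.05 TPM in *T. chinensis* (SD, n = 5). TRINITY_DN34041_c1_g2 was at 80.6 ± 78.0 TPM, TRINITY_DN31293_c4_g2 at 78.0 ± 56.8 TPM and TRINITY_DN40196_c3_g2 at 77.7 ± 84.6 TPM in *T. ramosissima* (SD, n = 6 each). These last 4 genes did not differ from each other beyond the spread between plants, and TRINITY_DN36006_c1_g3 stood above their mean TPM by more than its own SD.

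TRINITY_DN27944_c1_g2 and TRINITY_DN31293_c4_g2 were counted in every *T. chinensis* library. The first was at 0.361 and 0.940 CPM in C and 0.390, 0.977 and 0.995 CPM in WD of *T. chinensis*, and at 13.6, 15.3 and 32.1 CPM in C and 10.9, 5.51 and 7.72 CPM in WD of *T. ramosissima*. The second was at 0.452 and 0.400 CPM in C and 1.02, 0.458 and 0.361 CPM in WD of *T. chinensis*, and at 10.8, 9.0 and 19.6 CPM in C and 6.09, 6.82 and 3.66 CPM in WD of *T. ramosissima*. In both genes every *T. ramosissima* WD plant lay below every C plant of that species, and the *T. chinensis* treatments overlapped.

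**Figure D2:**
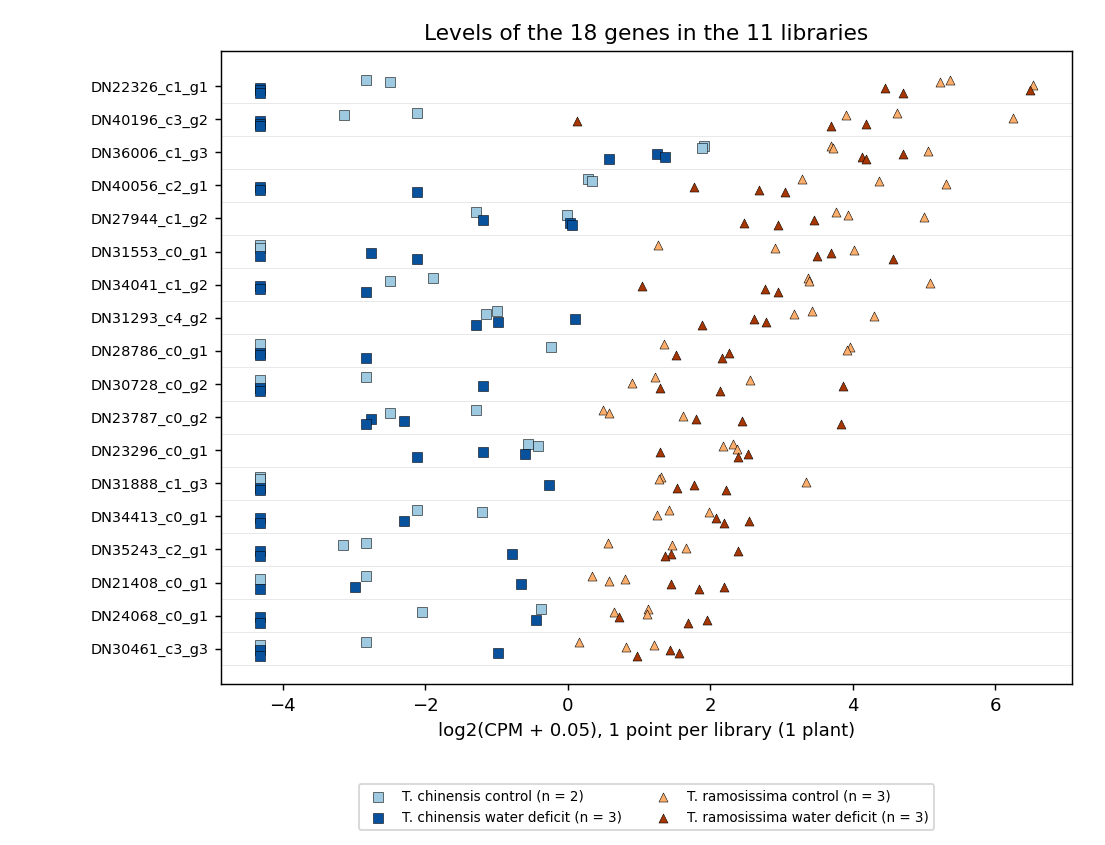
Each point is 1 library, at log2(CPM + 0.05) on the horizontal axis, and each line is 1 of the 18 genes, ordered by its mean in *T. ramosissima*. Squares (*T. chinensis*) lie to the left of triangles (*T. ramosissima*) for all 18 by the rule, and the squares at the left edge are libraries with a count of 0.

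Of the other genes, TRINITY_DN28786_c0_g1 ranged from 2.50 to 15.5 CPM in *T. ramosissima* (median 4.60), and its highest *T. chinensis* value, 0.805 CPM in C plant 2, stood apart from 0 or 0.0904 CPM in the other libraries. TRINITY_DN30728_c0_g2 ranged from 1.82 to 14.5 CPM (median 3.38), with at most 0.390 CPM in *T. chinensis*. TRINITY_DN31888_c1_g3 ranged from 2.37 to 10.1 CPM (median 3.11), and all 8 of its *T. chinensis* fragments were in WD plant 1. TRINITY_DN23296_c0_g1 was among the steadiest, with at most 5.70 CPM (median 5.04) in *T. ramosissima* and from 0.181 to 0.703 CPM in *T. chinensis*, with fragments in every library. TRINITY_DN35243_c2_g1 (1.43 to 5.21 CPM) and TRINITY_DN30461_c3_g3 (1.07 to 2.90 CPM) had most of their few *T. chinensis* fragments in WD plant 2, with 7 and 6 there.

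Over all 18 genes, the mean CPM in *T. ramosissima* had a median of 6.36, against 18.6 for the 20983 genes with at least 1 CPM in every *T. ramosissima* library. A count of 0 made up 34 of the 90 *T. chinensis* values, and 13 genes were at 0 in at least 1 library of that species, but 0 genes were at 0 in all 5. The pooled ratio between the species was lowest for TRINITY_DN24068_c0_g1, at 7.25 (4.55 to 12.2, counting error only), and TRINITY_DN36006_c1_g3, at 7.27 (6.20 to 8.56). The other 16 genes had pooled ratios from 8.86 to 1045.

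At the 2-fold margin, the genes just inside were TRINITY_DN21408_c0_g1 and TRINITY_DN24068_c0_g1. The first was at 1.21, 1.70 and 1.44 CPM in *T. ramosissima* C and 2.70, 4.54 and 3.52 CPM in WD, against a highest *T. chinensis* value of 0.586 CPM, a gap of 2.07. The second had a lowest value of 1.53 CPM and a highest *T. chinensis* value of 0.722 CPM, a gap of 2.11. Just outside were TRINITY_DN37796_c2_g1, with 92.7 against 46.7 CPM (gap 1.98), and TRINITY_DN32242_c1_g1, with 2.85 against 1.45 CPM (gap 1.96). At the floor of 1 CPM, TRINITY_DN34102_c0_g2 was just outside, since *T. ramosissima* C plant 1 was at 0.999 CPM. That gene had 0 fragments in every *T. chinensis* library and between 6.09 and 19.3 CPM in the other *T. ramosissima* libraries.

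The 18 genes varied more between *T. ramosissima* plants than expressed genes at large. The ratio of the highest to the lowest plant had a median of 4.80 over the 18 and 2.25 over the 20983 genes. The 18 were also at lower levels, with a median of the mean CPM of 6.36 against 18.6. The part of counting error in their wider span was not tested. C plant 3 was the highest library for 8 of the 18, where it was the highest for 18.9% of the 20983 genes, and C plant 1 for 0 of 18, against 11.3%. C plant 1 was the lowest for 7 and WD plant 1 for 5, against 34.4% and 24.4%. The summed CPM of the 18 was 389 in C plant 3 and between 129 and 201 in the other *T. ramosissima* libraries, and it was between 3.62 and 8.79 in *T. chinensis*. The summed level without C plant 3 was thus still at least 129 CPM in every *T. ramosissima* plant.

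**Figure D3:**
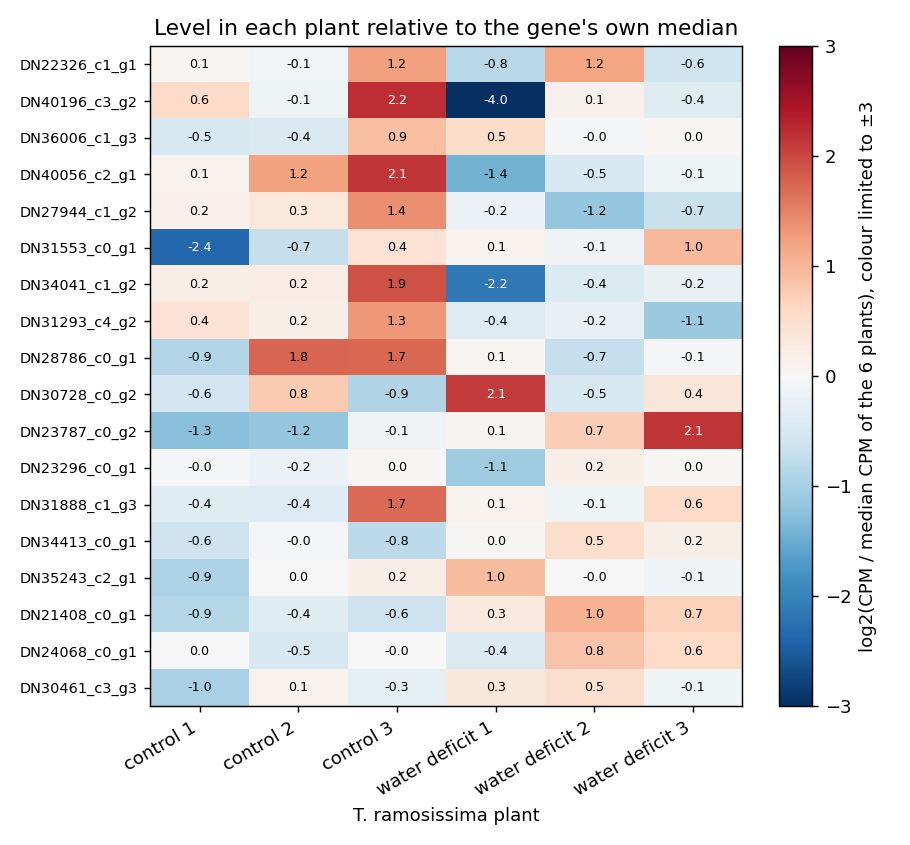
Colour and number give log2 of a plant's CPM over the gene's median CPM in the 6 *T. ramosissima* plants, with 1 row per gene and 1 column per plant. C plant 3 is high for most of the abundant genes at the top, and WD plant 1 is low for TRINITY_DN40196_c3_g2 and TRINITY_DN34041_c1_g2, at 1.04 and 2.01 CPM.

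The list depended most on *T. ramosissima* C plant 1, without which the same rule gave 53 genes. Leaving out any other library gave between 19 and 34 genes.

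Whether the difference held across treatments was examined with plants that the choice did not use. The rule on the C libraries alone gave 143 genes, and 29 of these (20.3%) also met it in the WD libraries, where 2.51% of the 22791 genes with 1 CPM in the *T. ramosissima* controls did. By edgeR's quasi-likelihood test between the species in the WD libraries, 17 of the 143 passed an FDR of 0.05 with the higher level in *T. ramosissima* and 0 with the lower, where 2.21% and 1.78% of all 28854 genes tested did. At an unadjusted p under 0.05, 68 of the 143 were higher (12.9% of all genes) and 2 lower (12.0%), while 27 of the 143 did not pass the filter on low counts and were not tested. Of the 116 tested, 74 had fewer than 2 *T. chinensis* WD libraries above 1 CPM and so entered the fit through *T. ramosissima*, where the choice made them high. This held for 13 of the 17 called genes, so these counts are given as a description and not as support for the list. Of the 17, 11 belong to the 18, which the WD libraries also helped to choose. The other 6 included TRINITY_DN37893_c2_g1, with a log2 difference of 3.79 ± 0.54 (SE). It is also 1 of the 13, at 0.488, 0.459 and 1.36 CPM in the *T. chinensis* WD libraries, so its call is no support. TRINITY_DN27492_c5_g2, TRINITY_DN29420_c0_g1 and TRINITY_DN36770_c0_g1, outside the 18, were not among the 13 and exceeded 1 CPM in every *T. chinensis* WD library. Their log2 differences were 1.78, 2.81 and 2.16, with adjusted p of 0.044, 0.044 and 0.0498 by the quasi-likelihood test. The call count depended on single plants, with 0 without *T. chinensis* WD plant 1 or 3 or *T. ramosissima* WD plant 2 or 3, 7 without *T. chinensis* WD plant 2 and 28 without *T. ramosissima* WD plant 1. It was 6 by limma-voom and 0 at a stricter threshold (FDR 0.001 and a log2 fold change of 2). In each alternative that called any of the 143, more were called higher than lower, with at most 5 lower. The choice and the filter favoured this direction in advance, so it is no support either.

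In the opposite direction, the rule on the WD libraries alone gave 707 genes, of which 29 (4.10%) also met it in the C libraries, against 0.349% of the 22633 genes with 1 CPM in the *T. ramosissima* WD libraries. By the quasi-likelihood test between the C groups, 0 of the 707 were called at an FDR of 0.05 (0.00354% of all 28225 genes tested were called higher), with 128 higher and 6 lower at an unadjusted p under 0.05 (4.56% and 3.16% of all genes). The exact test called 45 higher and DESeq2 48, without a share over all genes to set beside these counts. Of the 668 genes of this list that were tested, 125 entered through *T. ramosissima* in the same way. The 18 genes are part of the 29 that met the rule in both treatments separately.

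The response to water deficit is a contrast that the rule did not use, although a gene that fell to near 0 in *T. ramosissima* or rose far in *T. chinensis* could not have met it. In *T. ramosissima*, 0 of the 18 genes passed an FDR of 0.05 by the quasi-likelihood test, where 4.05% of the 29025 genes tested did. At an unadjusted p under 0.05, 2 were higher in WD (10.4% of all genes) and 5 lower (11.2%). The median log2 fold change was −0.03 over the 18 and 0.02 over all genes tested. The exact test and DESeq2 each called 3 of the 18, with 1 higher and 2 lower, and limma-voom called 0. The shares of all genes that these 3 methods called are not given here, so their counts have no background.

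The 3 genes called by the exact test and DESeq2, but not by the quasi-likelihood test or limma-voom, were TRINITY_DN40056_c2_g1, TRINITY_DN27944_c1_g2 and TRINITY_DN23787_c0_g2. TRINITY_DN40056_c2_g1 was at 9.70, 20.5 and 39.7 CPM in C and 3.37, 6.40 and 8.22 CPM in WD of *T. ramosissima*, without overlap. The log2 fold change was −1.90 (standard error 0.51, adjusted p = 0.0880 by the quasi-likelihood test and 0.00582 by DESeq2). For TRINITY_DN27944_c1_g2 it was −1.33 (standard error 0.37, adjusted p = 0.0961 and 0.0195). TRINITY_DN23787_c0_g2 was at 1.36, 1.44 and 3.02 CPM in C and 3.45, 5.38 and 14.2 CPM in WD, a log2 difference of 1.97 (standard error 0.60, adjusted p = 0.116 and 0.0206). WD plant 3 held the highest value and the groups did not overlap.

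Across the 18, all WD plants lay above all C plants of *T. ramosissima* for 3 genes and below them for 4, where 14.3% and 16.1% of the 20983 expressed genes were so separated. In *T. chinensis* the WD libraries lay below both controls for 7 of the 18 (31.8% of the same genes) and above them for 0 (25.9%). Most of these *T. chinensis* values were 0 to 3 fragments, and only 2 of the 18 passed the filter for a test in that species. TRINITY_DN40056_c2_g1 had 13 and 19 fragments in C and 0, 0 and 2 in WD. It passed the filter through the C libraries alone, at 1.17 and 1.21 CPM, so that only a lower level in WD could have been called, and the test is no support for its direction (log2 fold change −4.11, standard error 0.99, adjusted p = 0.0401 by the quasi-likelihood test, where 18.6% of 28210 genes were called). The ratio of pooled CPM of C over WD was 20.6 (5.25 to 177, counting error only). It was no longer called without *T. chinensis* WD plant 1 (adjusted p = 0.0732), and without either C plant it did not pass the filter. TRINITY_DN36006_c1_g3 was at −0.78 (standard error 0.35, adjusted p = 0.167) and was not called.

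The average effect of water deficit over both species was tested in 1 fit of all libraries with species as a term. In that fit 16 of the 18 passed the filter through the *T. ramosissima* libraries, with fewer than 2 *T. chinensis* libraries above 1 CPM, so for these genes the average rests mainly on *T. ramosissima*. It called 2 of the 18, both lower in WD, where 22.7% of 31320 genes were called. These were TRINITY_DN40056_c2_g1 (log2 fold change −2.38, standard error 0.52, adjusted p = 0.00888) and TRINITY_DN34041_c1_g2 (−1.75, standard error 0.54, adjusted p = 0.0381). The second had 5 fragments in all in *T. chinensis*, too few to show a response there, and was not called without either *T. chinensis* C plant, without *T. chinensis* WD plant 1 or 2, without *T. ramosissima* C plant 3 or without *T. ramosissima* WD plant 1, with adjusted p from 0.0505 to 0.155. DESeq2 and limma-voom each called 5 of the 18, but the shares of all genes they called are not given here, so these counts have no background. The difference between the species in the response was fitted as an interaction, which called 0 of the 18 (0.0639% of 31320 genes), with 4 at an unadjusted p under 0.05 (11.6% of all genes) and a smallest adjusted p of 0.313. The same 16 genes had at most 15 fragments in any *T. chinensis* library, so their response in that species could hardly be measured and the count of 0 does not show that the species responded alike.

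**Figure D4:**
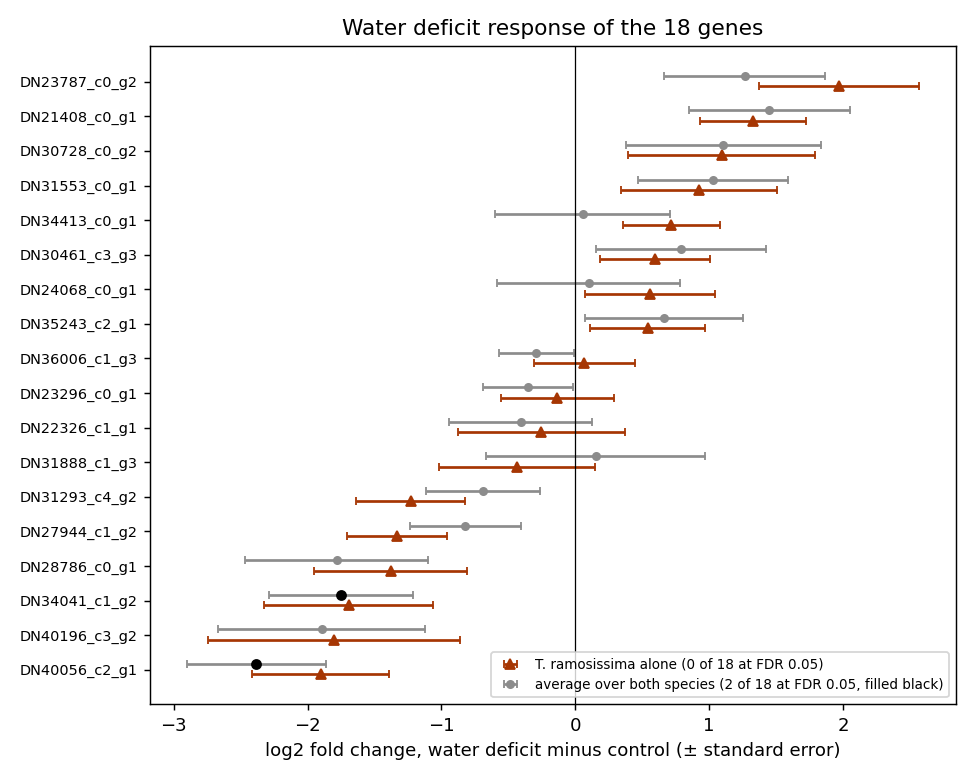
Points give the log2 fold change of WD minus C with its standard error for the 18 genes, in *T. ramosissima* alone (triangles) and averaged over both species (circles). Values run from −1.90 to 1.97 in *T. ramosissima*, and the 2 black circles, TRINITY_DN40056_c2_g1 at −2.38 and TRINITY_DN34041_c1_g2 at −1.75, are those called at an FDR of 0.05, the latter with 5 fragments in all in *T. chinensis*.

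Most of the 18 had a short effective length. This length, as the count per TPM relative to the median of well-counted genes, had a median of 0.202. It was 0.897 (quartiles 0.506 and 1.40) over the 20983 expressed genes. Effective length is not contig length, and contig lengths were not examined here. It was under 0.25 for 11 of the 18 and for 9.80% of those genes, and the shortest was TRINITY_DN21408_c0_g1 at 0.0318, while TRINITY_DN22326_c1_g1 (1.68) and TRINITY_DN34413_c0_g1 (0.984) were above the median of expressed genes. In most of the 18 the length was alike in both species where *T. chinensis* had fragments (0.0534 and 0.0518 for TRINITY_DN36006_c1_g3). TRINITY_DN30728_c0_g2 was at 0.430 in *T. ramosissima* and 0.717 in *T. chinensis*, the latter from 5 fragments. A count that was not a whole number, by a tolerance of 1e-06, shows that RSEM shared fragments out, and 10 of the 18 had at least 1 such value, against 24.9% of the expressed genes, while 8 had only whole counts. TRINITY_DN27944_c1_g2 and TRINITY_DN31293_c4_g2 had 9 such values of 11. The counts of these 10 genes therefore depended on how fragments were divided among similar contigs, and its part in the species difference was not tested.

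The 18 genes belonged to 18 different components, and 13 of them shared their component with at least 1 other gene, a share (72.2%) near the 65.9% of the expressed genes. There were 36 such partner genes, and 18 of them had a mean of at least 1 CPM in a species. The mean was higher in *T. ramosissima* for 17 of these 18 and higher in *T. chinensis* for 1, where 50.4% of all genes at that level had the higher mean in *T. ramosissima*. All *T. ramosissima* libraries lay above all *T. chinensis* libraries for 3 (0.889% of 28686 genes at that level) and the reverse held for 0 (1.79%). Some of the 17 reached a mean of 1 CPM only in *T. ramosissima*, so this minimum set their direction. The 3 separated partners, TRINITY_DN31293_c4_g1, TRINITY_DN31293_c4_g5 and TRINITY_DN30728_c0_g3, were among them, with *T. chinensis* means of 0.0308, 0.0254 and 0.147 CPM. Several partners also shared a component, so these counts are a description and no support for a species difference.

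The 1 partner with a higher mean in *T. chinensis* was TRINITY_DN27944_c1_g3, at 4.91 ± 3.99 CPM (SD, n = 5) against 0.210 ± 0.366 CPM (SD, n = 6) in *T. ramosissima*. Its lowest *T. chinensis* library, at 0.917 CPM, was just under its highest *T. ramosissima* library, at 0.933 CPM. Its component held TRINITY_DN27944_c1_g2, which went the opposite way. All partners of that gene summed to 9.38 ± 5.40 CPM in *T. chinensis* and 10.1 ± 8.92 CPM in *T. ramosissima*, alike within the spread.

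Summed over a component, the margin between the species was kept in 3 of the 13 cases. These were the components of TRINITY_DN31293_c4_g2, TRINITY_DN30728_c0_g2 and TRINITY_DN34413_c0_g1. In the first, TRINITY_DN31293_c4_g1 was at 4.84 ± 5.26 CPM in *T. ramosissima* (SD, n = 6) and 0.0308 ± 0.0432 CPM in *T. chinensis* (SD, n = 5). In the second, TRINITY_DN30728_c0_g3 was at 4.20 ± 4.76 CPM and 0.147 ± 0.236 CPM. In both, the partner too was higher in every *T. ramosissima* library than in any *T. chinensis* library.

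In the other 10 components the partners carried much of the signal in *T. chinensis*. TRINITY_DN36006_c1_g3 was 1.21% of its component in *T. ramosissima* and 0.186% in *T. chinensis*, beside TRINITY_DN36006_c1_g1 at 1692 ± 243 CPM (SD, n = 6) and 1476 ± 473 CPM (SD, n = 5), which overlapped between the species. TRINITY_DN40196_c3_g2 was 45.4% of its component in *T. ramosissima* and 0.278% in *T. chinensis*, and its partner TRINITY_DN40196_c3_g1 was at 19.8 ± 3.58 and 10.9 ± 6.59 CPM. Likewise TRINITY_DN34041_c1_g2 was 39.3% and 2.35% of its component, whose lowest *T. ramosissima* sum, 17.2 CPM, was 1.08 times the highest *T. chinensis* sum, 15.8 CPM. With the 5 members that are alone in their component, 8 of the 18 met the rule on component sums.

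**Figure D5:**
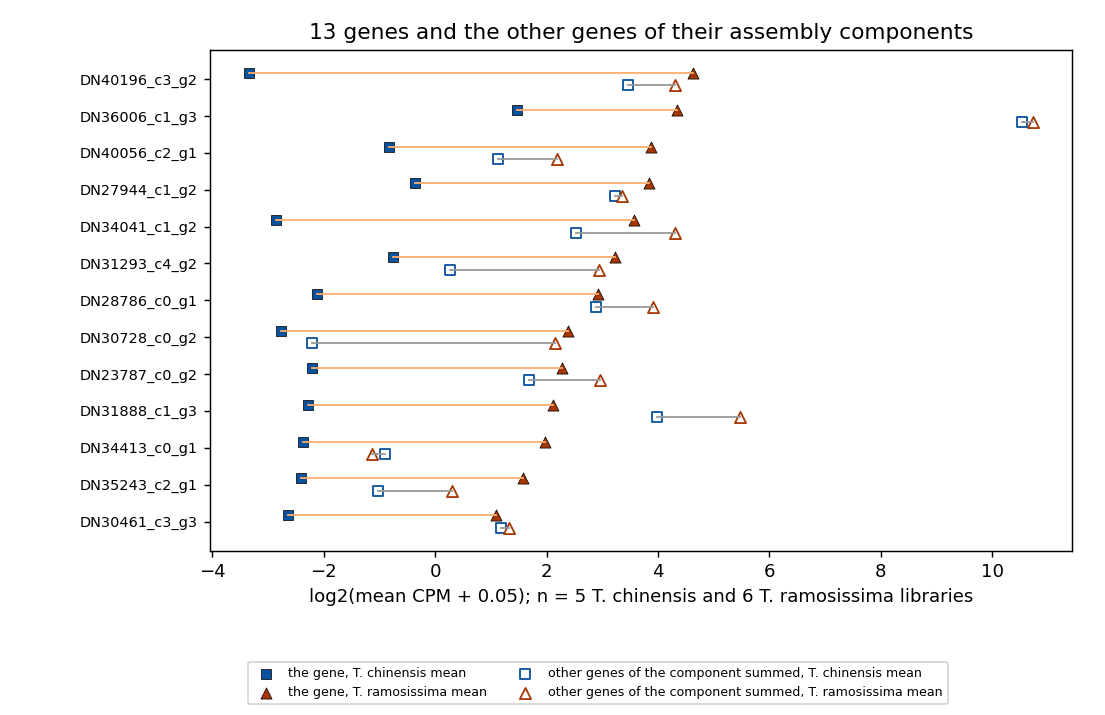
For the 13 genes with a partner, filled symbols give the gene's mean and open symbols the mean of the other genes of its component summed, as log2(mean CPM + 0.05), in *T. chinensis* (squares, n = 5) and *T. ramosissima* (triangles, n = 6). Filled symbols are far apart by the rule, and open symbols lie closer together in all 13 components, as at 9.38 and 10.1 CPM for the partners of TRINITY_DN27944_c1_g2.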

How the data were processed

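Leaf RNA of 11 *Tamarix* seedlings was sequenced, 1 plant per library. The authors trimmed reads with Prinseq, built 1 joint Trinity assembly from the reads of both species, and estimated abundance per library with RSEM on alignments by bowtie (version 2). The deposited estimated counts are fragments per assembled gene, without normalization, and the deposited TPM values are RSEM's per library. No genome was used. RSEM divides a fragment among the contigs it matches, so some deposited counts are not whole.

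CPM was the count divided by the library total, times 1000000. For tests, the estimated counts were rounded and a gene entered a fit if 2 or more of its libraries exceeded 1 CPM. Fits were made in edgeR 4.0.16 (R 4.3.3) with TMM factors and the quasi-likelihood test. Each 2-group fit used only its own groups, the average and the interaction used all libraries, and p-values were adjusted over all genes tested by Benjamini-Hochberg. The scripts were tested on simulated libraries. Intervals on ratios of fragments are exact (Clopper-Pearson, 95%) and cover counting error only. They leave out the spread between plants. Those between the species also leave out the choice of the genes by the same values, so they are no test. Relative length is the count divided by the TPM, relative to its median over genes with at least 50 counts in every library. It stands for the effective length that RSEM used and not for the contig length. Alternatives were the exact test, DESeq2 1.42.0, limma-voom (limma 3.58.1), other scalings, filters and thresholds, a replicate block, and each library left out.

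The members and the lists were chosen with earlier results of these data known. Genes given with values in every library were those with the highest TPM (5), the largest gap between the species (3), the widest span in *T. ramosissima*, a call in a test, or a place next to the threshold. Beyond this rule, TRINITY_DN34413_c0_g1 and TRINITY_DN23787_c0_g2 were named after their values were seen. The members given only by a range, such as TRINITY_DN28786_c0_g1, also fall outside this rule. So do the partners and the genes outside the 18 that were called in the WD libraries. Their features were described with the values in view. The share of genes that kept the margin in a library left out was planned and is not given, since the genes that keep it are the 18 themselves.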

Additional observations from a re-analysis of the deposited data

Results flagged for a closer look

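By CPM, the treatments of TRINITY_DN34413_c0_g1 did not overlap in either species, and they differed in opposite directions. In *T. ramosissima* it was at 2.64, 3.90 and 2.35 CPM in C and at 4.17, 5.79 and 4.53 CPM in WD, and in *T. chinensis* at 0.181 and 0.383 CPM in C and 0, 0.153 and 0 CPM in WD. The response in *T. ramosissima* minus that in *T. chinensis* was 2.83 on the log2 scale (standard error 1.03), and this difference did not pass in the interaction fit (adjusted p = 0.313, edgeR quasi-likelihood test). The *T. chinensis* values rest on 10 fragments over 5 libraries. There, C plant 1 and WD plant 2 had 2 fragments each, so their CPM differed only by library total. In *T. ramosissima* alone the gene was not called (log2 fold change 0.72, standard error 0.36, adjusted p = 0.305 by the quasi-likelihood test). The share of all genes with such opposite moves is not given here.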

How the results depend on the processing

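The rule gave 18 genes. It gave 41 on TPM (17 of the 18 among them), 22 with TMM-scaled CPM (17) and with median-ratio scaled CPM (18), 13 at 3-fold, 7 at 4-fold, 29 at a minimum of 0.5 CPM, 3 at 5 CPM, 8 on component sums, 143 on the controls alone and 707 on the water deficit libraries alone. Fewer libraries can only add genes, and leaving out 1 gave 19 to 53. Calls among the 18 in *T. ramosissima* numbered 0, and became 3 by the exact test, 3 by DESeq2 and 7 without a filter on low counts; leaving out any 1 library left 0. In *T. chinensis* the 1 call became 2 without the filter and 0 at the thresholds of the paper, and lay between 0 and 1 with a library left out. The average effect gave 2, and 5 by DESeq2, 5 by limma-voom, 4 without the filter, 0 at the thresholds of the paper and 1 to 3 with a library left out. The interaction gave 0 in every alternative run. Of the genes chosen on the controls, 17 were called in the water deficit libraries, and 53 by the exact test, 57 by DESeq2, 6 by limma-voom, 85 without the filter, 0 at the thresholds of the paper and 0 to 28 with a library left out. Of those chosen on the water deficit libraries, 0 were called in the controls, and 45 by the exact test, 48 by DESeq2, 1 without scaling beyond library size, 113 without the filter and 0 to 2 with a library left out. The cause of these shifts was not tested. For the alternatives, the share of all genes called is not given, so their counts have no background. Replicate numbers did not pair the plants: same-numbered C and WD plants had correlations of their deviations between −0.215 and 0.0923 in *T. ramosissima* and 0.0376 and 0.102 in *T. chinensis*. With the replicate number as a block, calls numbered 0 in *T. chinensis*, 1 for the average, 0 for the genes chosen on the controls and 28 for those chosen on the water deficit libraries. Single genes were followed only if called in *T. chinensis* or for the average, or at an unadjusted p under 0.05 in *T. ramosissima*. Of their log2 fold changes under alternatives, 114 kept their direction and side of the threshold, 12 newly passed it, 9 no longer did, and 0 changed sign. This selection favoured a stable sign, and genes with smaller changes are not covered. All 54 ratios between the species under other scalings moved by less than the spread between plants. In *T. chinensis*, 5 of the 18 genes had 5 fragments or fewer over all libraries, which limits their ratios.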
